A study of Homo sapiens with 6 samples.

Results

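The genes described here make cholesterol and fatty acids or control, move and export sterols. They are 38 genes in all, chosen by name from these pathways: 18 enzymes of cholesterol synthesis, 5 genes of SREBP control, 5 genes of the liver X receptors (LXR) and sterol efflux, 3 genes of intracellular sterol transport and 7 enzymes of fatty acid synthesis and desaturation. They were measured by 45 probes, out of 34127 probes on the array and 19740 named genes. All 45 probes were detected on all 6 arrays, so all 38 genes are among the 14747 named genes that were tested.

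The arrays compared SU-DHL-2 cells, an established human line of diffuse large B-cell lymphoma (DLBCL), after 72 h with IL-17A at 200 pg/ml (3 samples, the IL-17A group) and after 72 h without it (3 samples, the control group). IL-17A is a cytokine of Th17 cells, and the study asked which genes of the lymphoma cells it changed. Both groups were the same single line in the same medium with serum, so they model 1 tumor only. The labels do not say whether the samples were separate cultures, and the p-values therefore measure the spread between these samples, which may be technical. The values are log2 probe signals of 1-colour Agilent arrays after quantile normalization.

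Cells hold the activity of this pathway close to their need for sterol. SREBP precursors are membrane proteins of the endoplasmic reticulum that bind SCAP. When sterol is low, SCAP carries them to the Golgi, where proteases release the part that enters the nucleus and switches on the genes of sterol and fatty acid synthesis. When sterol is high, INSIG proteins hold SCAP back, and oxysterols activate LXR, which raises efflux transporters. Dividing lymphocytes and lymphoma cells draw on the same enzymes for new membrane.

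The lymphoma label was checked against cell type markers. All 9 B-cell markers were detected on all 6 arrays and none had an adjusted p under 0.05 (limma). Of 5 T-cell markers, CD3D, CD3E, CD3G and CD4 were also detected on all 6 arrays and TRAT1 on none. The summed linear signal of the list was lower with IL-17A (1001 to 1095) than in the controls (1166 to 1368). Most of this sum was CD4, with mean log2 signals of 9.80 and 10.11, while the next brightest, CD3G, was at 6.75 and 6.63. Of that list CD3E passed the test, with a log2 fold change of −0.46 (limma, adjusted p = 0.0401), at dim mean log2 signals of 2.78 and 3.24. CD4 was at −0.31, CD3D at −0.11 and CD3G, in the other direction, at 0.12 (limma adjusted p = 0.0669, 0.729 and 0.170). The macrophage and mesenchymal lists reached 41.3 to 56.6 and 18.7 to 28.2, with CD14 and COL1A1 detected on all 6 arrays, MARCO and PDGFRB on some, and CSF1R, CD163, COL1A2, COL3A1 and LUM on none. Of the adipocyte markers PLIN1 and CIDEC, both lipid droplet proteins, were detected on all 6 arrays and ADIPOQ and LEP on none, and the summed signals overlapped (216 to 233 with IL-17A, 217 to 230 in the controls). PLIN1 was at 0.67 on the log2 scale, without overlap (limma adjusted p = 0.0875). The part of the T-cell markers and of PLIN1 in the results below was not tested. Each array had 23570 to 24077 detected probes and no saturated spot. Per the file headers, the 3 controls shared a scan with IL-17A replicate 1 alone, the other IL-17A arrays having been read separately, so values within the shared scan are given for the results that passed the test. Within it CD3E was at −0.36 (limma adjusted p = 0.245).

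After IL-17A, INSIG2, MYLIP and STARD4 rose, by 1.35-fold, 1.23-fold and 1.14-fold (limma, Benjamini-Hochberg adjusted p = 0.0252, 0.0327 and 0.0378, n = 3 and 3). In this fit no enzyme of cholesterol or fatty acid synthesis passed the test and no member fell. This turned under other settings, with values beside each gene below. CYP51A1 fell with normexp background correction, which here added an offset of 50 to every signal. Such an offset shrinks the log2 changes of dim probes. With a variance trend CYP51A1, DHCR7 and FASN fell and HSD17B7 and SREBF1 rose. With the methods' t-test FASN fell and HSD17B7 rose. The 3 called genes are 7.89% of the 38. Over the brightest probe of every named gene, 7.85% passed the same test (4.37% higher, 3.48% lower with IL-17A), and over all tested probes 7.59%, so the share called in the list was near that of the array as a whole. The methods name an FDR threshold, which the adjusted p stands for here, and a fold change of at least 1.5 with p under 0.05. At that second threshold, with the p unadjusted, 0 of the 38 genes passed at the brightest probe, against 1.92% of named genes. At an unadjusted p under 0.05 alone 7 genes were higher and 4 lower (limma), against 16.9% and 14.8% of named genes. Fewer cells of a type and less RNA per cell cannot be told apart in such bulk samples.

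The changes were small and the list was measured precisely. The 38 log2 fold changes ran from −0.23 to 0.43, with a median of 0.018, beside 0.0032 over all named genes and 0.0070 over all tested probes. The median size without regard to sign was 0.080 in the list and 0.113 over all named genes, and 3 members against 27.0% of named genes moved by more than 0.2 on the log2 scale. The median standard error was 0.048 in the list and 0.061 over all named genes, and the members were brighter (median log2 signal 10.18 against 7.84). At the brightest probe, every 95% interval of the 38 genes lay inside a 1.5-fold change in either direction. The bound farthest from 0 was 0.52, in INSIG2. A dimmer ABCA1 probe, described below, lay outside, at 0.66 (95% interval 0.56 to 0.76). The groups did not overlap in 14 of the 38 genes (36.8%), 7 higher and 7 lower, against 40.7% of named genes (21.4% higher, 19.3% lower).

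**Figure D1:**
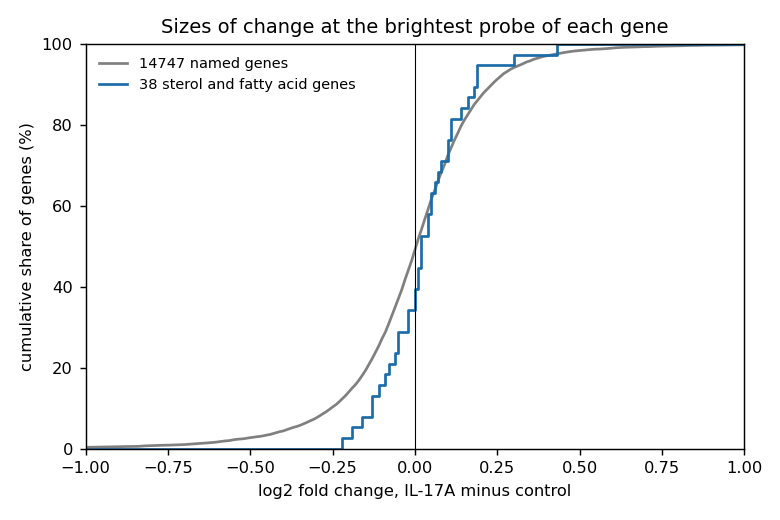
Cumulative share of genes (vertical axis, %) against the log2 fold change of IL-17A minus control at the brightest probe (horizontal axis), for the 38 sterol and fatty acid genes and for 14747 named genes. Both curves are centred near 0, and that of the 38 genes is the steeper, with 3 genes beyond 0.2 in size against 27.0% of all named genes.

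**Figure D2:**
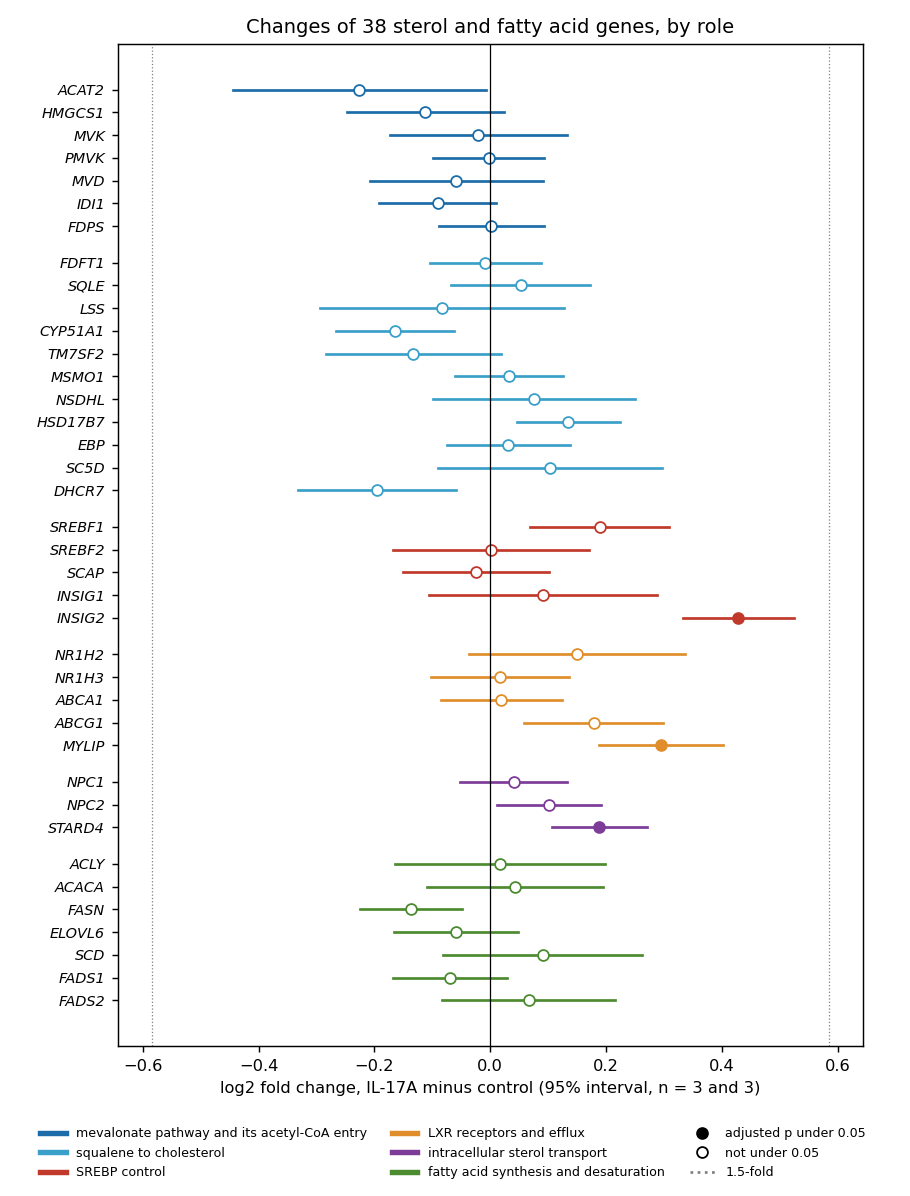
Log2 fold change of IL-17A minus control (horizontal axis) at the brightest probe of each of the 38 genes, grouped by role, with 95% intervals from limma and 3 arrays per group. Filled points have an adjusted p under 0.05 (INSIG2, MYLIP and STARD4), open points do not, and dotted lines mark a 1.5-fold change, which no interval reached.

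The sequences before the start sites of the 3 genes that rose are shown because SREBPs and the factor NF-Y act through short motifs in such windows. They were taken from RefSeq promoter windows of GRCh38.p14, which cover 250 bases before to 50 bases after a start site, and 33 of the 38 genes had a window (not ACAT2, FDFT1, SQLE, ABCG1 and FASN). The motifs searched on both strands were the sterol element core TCACCCC, its looser form TCACNCC, which contains every match of the first, the NF-Y motif CCAAT and the E-box CACGTG. The 250 bases before the start follow for each gene 5′ to 3′ on its own strand, with motifs in capitals, for INSIG2 at chr2:118088221-118088470 (plus strand), MYLIP at chr6:16128836-16129085 (plus strand) and STARD4 at chr5:111512536-111512785 (minus strand).
INSIG2: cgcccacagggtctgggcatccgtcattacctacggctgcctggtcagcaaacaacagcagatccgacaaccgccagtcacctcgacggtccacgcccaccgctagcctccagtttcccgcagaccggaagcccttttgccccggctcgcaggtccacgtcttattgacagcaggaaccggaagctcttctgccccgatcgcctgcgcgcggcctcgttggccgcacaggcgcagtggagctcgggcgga
MYLIP: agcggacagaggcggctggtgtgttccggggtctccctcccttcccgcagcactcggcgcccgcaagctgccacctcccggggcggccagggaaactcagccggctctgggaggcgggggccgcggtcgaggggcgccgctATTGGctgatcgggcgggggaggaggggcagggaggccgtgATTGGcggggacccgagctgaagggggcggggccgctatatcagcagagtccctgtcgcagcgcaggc
STARD4: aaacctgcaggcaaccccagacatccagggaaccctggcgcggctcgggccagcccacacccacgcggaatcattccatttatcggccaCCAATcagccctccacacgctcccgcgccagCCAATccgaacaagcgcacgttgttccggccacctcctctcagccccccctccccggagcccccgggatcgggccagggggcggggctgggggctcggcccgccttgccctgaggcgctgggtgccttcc
INSIG2 has 2 RefSeq start sites with overlapping windows. The stretch before the upstream one held none of the 4 motifs, and the window of the downstream one held TCACCCC on the opposite strand, 11 bases before that start, shown with 10 bases on each side at chr2:118088529-118088555.
INSIG2 site: ggcggaggcgGGGGTGAgttgggggtc
The windows of MYLIP and STARD4 each held CCAAT at 2 places, on the opposite strand (read as ATTGG) in MYLIP and on the gene's strand in STARD4, and neither held a sterol element core. TCACCCC was found in 4 of the 33 genes (12.1%: MVK, SREBF2, INSIG2 and NR1H3) and in 6.57% of all 27305 genes with a window. TCACNCC was found in 30.3% of the 33 and 18.2% of all, CCAAT in 69.7% and 39.7%, and CACGTG in 15.2% and 8.77%. A match describes these letters only and shows no binding.

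Among the genes of SREBP control, INSIG2, which holds SCAP in the endoplasmic reticulum, rose the most. At its brighter probe (A_33_P3321342) the log2 signal was 9.42, 9.38 and 9.38 in IL-17A replicates 1 to 3 and 9.01, 8.96 and 8.93 in the controls. All 3 IL-17A arrays lay above all 3 controls, and the gap between the groups was wider than the spread within either. The means were 9.40 ± 0.023 and 8.97 ± 0.038 (SD, n = 3 and 3), a log2 fold change of 0.43 (SE 0.039, 95% interval 0.33 to 0.52, limma adjusted p = 0.0252). The dimmer INSIG2 probe gave 9.21, 9.14 and 9.12 with IL-17A against 8.80, 8.67 and 8.83, again without overlap, and a log2 fold change of 0.39 (SE 0.058, limma adjusted p = 0.0327), or 0.44 within the shared scan (limma adjusted p = 0.182).

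INSIG1, its paralog and itself a classic SREBP target, did not pass the test. Its log2 signal was 12.70, 12.95 and 12.91 with IL-17A and 12.69, 12.77 and 12.83 in the controls, and the groups overlapped. The log2 fold change was 0.09 (SE 0.079, 95% interval −0.11 to 0.29, limma adjusted p = 0.467). The change of INSIG2 exceeded that of INSIG1 by 0.34 on the log2 scale, with an exact two-sided permutation p = 0.1 over 20 groupings of the arrays, the smallest this design can give.

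SREBF1 encodes the SREBP forms that act mainly on fatty acid genes, and its 2 probes moved in opposite directions. The brighter probe read 12.36, 12.44 and 12.37 with IL-17A and 12.13, 12.21 and 12.26 in the controls, without overlap, with a log2 fold change of 0.19 (SE 0.048, limma adjusted p = 0.0685, and 0.0229 with a variance trend). The dimmer probe read 5.31, 5.12 and 5.31 against 5.44, 5.49 and 5.36, with a log2 fold change of −0.18 (SE 0.070, limma adjusted p = 0.144). Neither probe passed the test in this fit, and their changes differed by −0.37 (dimmer minus brighter, exact permutation p = 0.1, the smallest possible).

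SREBF2, whose product acts mainly on cholesterol genes, read 9.46, 9.32 and 9.39 with IL-17A and 9.50, 9.32 and 9.33 without. The ranges were almost the same, with a log2 fold change of 0.00098 (95% interval −0.17 to 0.17, limma adjusted p = 0.994). SCAP, the escort of SREBP, had a log2 fold change of −0.025 (limma adjusted p = 0.771). Of the 5 genes of SREBP control, 4 had higher and 1 lower values, and 1 passed the test. INSIG1 turned to −0.058 with the scan as a block, and SCAP to 0.043 there and to 0.0083 without normalization. With that block the change rests on IL-17A replicate 1 against the controls, since the other IL-17A arrays shared no scan with a control.

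The 5 LXR and efflux genes all had higher mean values with IL-17A in this fit and under the other scalings, while with the scan as a block 3 of 5 did, ABCA1 and NR1H3 having turned. Their median log2 fold change was 0.15 (0.060 with normexp, 0.24 with the scan as a block), and MYLIP was the member that passed the test. MYLIP is an LXR target and a ubiquitin ligase that marks lipoprotein receptors for breakdown. Its log2 signal (probe A_33_P3255914) was 10.27, 10.34 and 10.30 with IL-17A and 9.96, 10.02 and 10.06 in the controls. The groups did not overlap, with means of 10.31 ± 0.035 and 10.01 ± 0.048 (SD, n = 3 and 3) and a log2 fold change of 0.29 (SE 0.043, 95% interval 0.19 to 0.40, limma adjusted p = 0.0327).

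The transporters ABCG1 and ABCA1, which pass cholesterol to lipoprotein particles and are also LXR targets, were less uniform. ABCG1 read 6.15, 6.03 and 6.09 with IL-17A against 5.93, 5.87 and 5.95. The groups did not overlap, but the log2 fold change of 0.18 (SE 0.048) did not pass the test (limma adjusted p = 0.0753) and was 0.060 with normexp. NR1H2 and NR1H3, which encode LXR beta and LXR alpha, had log2 fold changes of 0.15 and 0.017 (limma adjusted p = 0.232 and 0.836). That of NR1H2 was 0.067 with normexp and 0.28 with the scan as a block.

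ABCA1 gave different answers at its 2 probes, which carry the same RefSeq accession. The brighter probe (A_24_P235429) read 7.81, 7.91 and 7.85 with IL-17A and 7.82, 7.85 and 7.85 in the controls, and the groups overlapped (log2 fold change 0.019, SE 0.042, limma adjusted p = 0.790). The dimmer probe (A_33_P3422897) read 4.69, 4.72 and 4.71 against 4.00, 4.07 and 4.07. Its groups lay far apart relative to their spread, with means of 4.71 ± 0.017 and 4.05 ± 0.041 (SD, n = 3 and 3) and a log2 fold change of 0.66 (SE 0.039, limma adjusted p = 0.0149), and it was the 1 probe of the 45 past the 1.5-fold threshold of the methods, against 2.18% of all tested probes. The changes at the 2 probes differed by 0.64 (exact permutation p = 0.1, the smallest possible). The size at the dimmer probe depended on the background correction, being 0.14 with normexp (limma adjusted p = 0.0259), and over 14 alternatives its adjusted p ran from 0.0186 to 0.158 and was under 0.05 in 7. Within the shared scan it was at 0.64 (limma adjusted p = 0.158), and the mean over both probes was at 0.34 (limma adjusted p = 0.0288). Counted by probe, 5 of the 45 passed the adjusted test (11.1%, against 7.59% of all tested probes and 4.43% in the upward direction), all higher with IL-17A: both INSIG2 probes, the dimmer ABCA1 probe, MYLIP and STARD4.

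**Figure D3:**
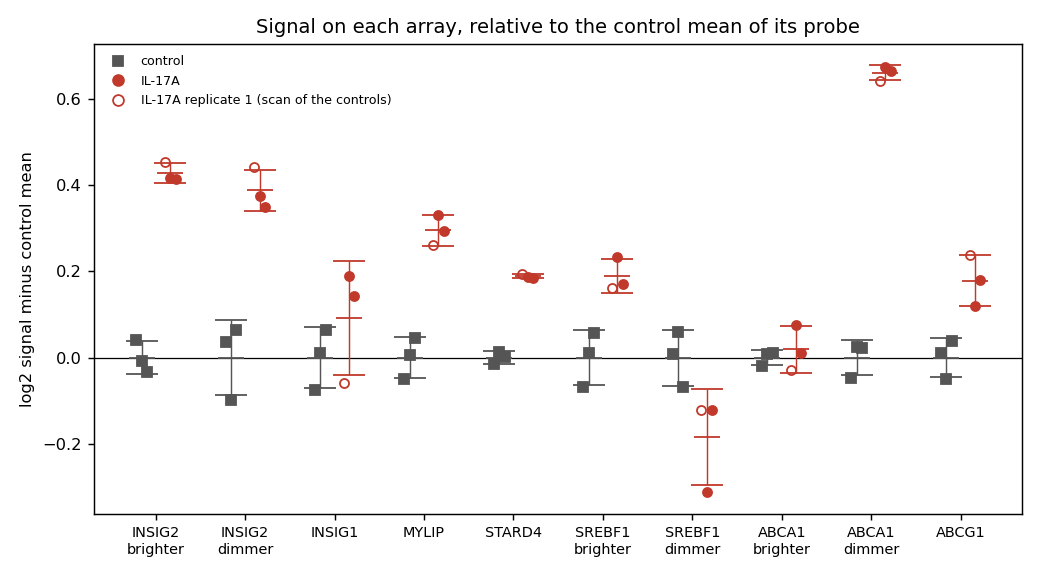
Log2 signal of each array minus the control mean of its own probe (vertical axis), for probes of INSIG2, INSIG1, MYLIP, STARD4, SREBF1, ABCA1 and ABCG1. Squares are controls, circles IL-17A arrays (open for replicate 1, read in the scan of the controls) and bars are means with SD (n = 3). The IL-17A arrays sit above the controls at both INSIG2 probes, at MYLIP, STARD4 and the dimmer ABCA1 probe, overlap them at INSIG1 and the brighter ABCA1 probe, and lie on opposite sides at the 2 SREBF1 probes.

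All 3 genes of intracellular sterol transport had higher values with IL-17A, in this fit and under the other scalings. They also did with the scan as a block, which rests on IL-17A replicate 1 alone. STARD4, a soluble carrier of sterol between membranes, passed the test. Its log2 signal (probe A_23_P327519) was 7.11, 7.10 and 7.10 with IL-17A and 6.90, 6.93 and 6.91 in the controls. The groups did not overlap and each was tight, with means of 7.10 ± 0.005 and 6.91 ± 0.015 (SD, n = 3 and 3) and a log2 fold change of 0.19 (SE 0.033, 95% interval 0.11 to 0.27, limma adjusted p = 0.0378). With normexp background correction the change was 0.11, with an adjusted p of 0.0601 (limma). NPC2 and NPC1, which together release cholesterol from lysosomes, had log2 fold changes of 0.10 (limma adjusted p = 0.127, no overlap) and 0.040 (limma adjusted p = 0.493).

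The 3 calls were compared within the scan and with each array left out. Within the scan that held IL-17A replicate 1 and the controls, the log2 fold changes of INSIG2, MYLIP and STARD4 were 0.45, 0.26 and 0.19 (limma, unadjusted p = 0.00275, 0.0223 and 0.0307, adjusted p = 0.170, 0.200 and 0.214), the lone IL-17A array being assumed to vary like the controls. Without IL-17A replicate 1, 2 or 3 the adjusted p of INSIG2 was 0.0514, 0.0781 and 0.119, and without control replicate 1, 2 or 3 it was 0.0826, 0.133 and 0.0477 (limma). For MYLIP these were 0.0666, 0.0811, 0.119, 0.0912, 0.135 and 0.0479, and for STARD4 0.0791, 0.0885, 0.132, 0.108, 0.149 and 0.0609. The sizes hardly moved, from 0.41 to 0.45 in INSIG2, 0.27 to 0.32 in MYLIP and 0.18 to 0.20 in STARD4.

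None of the 18 enzymes of cholesterol synthesis passed the test in this fit (smallest limma adjusted p = 0.0657). Under other settings 1 passed with normexp, 3 with a variance trend and 1 with the methods' t-test. Over all tested probes these settings called 8.52%, 16.1% and 5.21%. At an unadjusted p under 0.05 there were 1 higher and 3 lower. Of the 18, 7 had higher and 11 lower values, with a median log2 fold change of −0.015, and the groups did not overlap in 6 (1 higher, 5 lower, 33.3% against 40.7% of named genes). In the mevalonate pathway and its entry, which turn acetyl-CoA into the isoprenoid units of sterols, 6 of 7 enzymes had lower values, with a median of −0.058, while 5 of 7 did without normalization, with normexp or with the scan as a block, and 7 of 7 with the authors' normalized values.

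ACAT2, which joins acetyl-CoA units ahead of the pathway, had the lowest value of the list, −0.23 (SE 0.088, limma adjusted p = 0.151). Its log2 signal ran from 10.97 to 11.29 with IL-17A and from 11.31 to 11.41 in the controls, without overlap. IDI1, which interconverts the isoprene units, also did not overlap, at −0.091 (limma adjusted p = 0.191). HMGCS1, which forms HMG-CoA, was at −0.11 (limma adjusted p = 0.223). MVD, which decarboxylates diphosphomevalonate, was at −0.058, and the kinases MVK and PMVK at −0.021 and −0.0028. FDPS, the farnesyl diphosphate synthase, was at 0.0021 (95% interval −0.089 to 0.094). In HMGCS1, MVD, MVK, PMVK and FDPS the groups overlapped.

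The 11 enzymes from squalene to cholesterol split evenly, with 6 higher, 5 lower and a median of 0.031. The counts were the same with the scan as a block, but with LSS at 0.052 and EBP at −0.012 the members had changed. CYP51A1, the lanosterol demethylase, read 11.47 to 11.54 with IL-17A and 11.63 to 11.71 in the controls. The groups did not overlap, and the log2 fold change was −0.16 (SE 0.041, limma adjusted p = 0.0657), the smallest adjusted p among the enzymes. It passed with normexp (−0.17, limma adjusted p = 0.0249) and with a variance trend (limma adjusted p = 0.0221). DHCR7, which makes cholesterol from its last precursor in one branch, read 11.27 to 11.37 against 11.46 to 11.61, without overlap, at −0.20 (SE 0.055, limma adjusted p = 0.0800, and 0.0303 with a variance trend). TM7SF2, a sterol reductase, was at −0.13 without overlap (limma adjusted p = 0.200).

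HSD17B7, a keto-reductase of the same route, was the enzyme with the largest positive value. It read 8.18 to 8.21 with IL-17A and 8.05 to 8.10 in the controls, without overlap, at 0.14 (SE 0.036, limma adjusted p = 0.0723). With a variance trend the adjusted p was 0.0456 (limma), and with the methods' t-test, adjusted over all tested probes, 0.0457. Its 3 probes gave like values of 0.12 to 0.14, the dimmest with overlapping groups (limma adjusted p = 0.287). But near-identical pseudogene copies may share its signal, so the gene is uncertain. The other enzymes of the route, the squalene synthase FDFT1 (−0.0083), the epoxidase SQLE (0.052), the cyclase LSS (−0.083 at the brighter and 0.025 at the dimmer probe), the demethylation enzymes MSMO1 (0.033) and NSDHL (0.076), the isomerase EBP (0.031) and the desaturase SC5D (0.10), all had overlapping groups and limma adjusted p-values of 0.407 or more.

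Of the 7 enzymes that build and desaturate fatty acids, none passed the test in this fit, with 4 higher and 3 lower values. FASN, the fatty acid synthase, read 11.29 to 11.32 with IL-17A and 11.42 to 11.47 in the controls. The groups did not overlap, at −0.14 (SE 0.036, limma adjusted p = 0.0700). FASN passed with a variance trend (limma adjusted p = 0.0250) and with the methods' t-test, adjusted over all tested probes (0.0439). FADS1, a desaturase of polyunsaturated fatty acids, was also without overlap, at −0.069 (limma adjusted p = 0.283). The values were 0.017 for the citrate lyase ACLY, 0.043 and −0.035 for the brighter and dimmer probe of the carboxylase ACACA, −0.060 for the elongase ELOVL6, 0.091 for the desaturase SCD and 0.066 for FADS2, and in each the groups overlapped.

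The rest of the pathway was described by 58 further genes in 6 lists, of which 56 were tested (not ME1 and GRAMD1B). Of these, 4 rose and 1 fell (8.93%, against 7.85% of named genes), with a median log2 fold change of 0.015. In the list of SREBP processing and sterol sensing, 3 of 8 genes passed the test. MBTPS2, the site-2 protease that releases SREBP, rose by 0.26 on the log2 scale (SE 0.053, limma adjusted p = 0.0462), and ERLIN1, a membrane protein that binds SREBP complexes, by 0.24 (SE 0.050, limma adjusted p = 0.0475). PAQR3, a Golgi protein that anchors SCAP, fell by 0.20 (SE 0.035, limma adjusted p = 0.0388).

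MBTPS2 read 4.71, 4.66 and 4.75 with IL-17A and 4.37, 4.52 and 4.44 in the controls. PAQR3 read 9.29, 9.30 and 9.25 against 9.49, 9.49 and 9.46. In both the groups did not overlap. Over 14 alternatives the call of MBTPS2 was kept in 0, that of ERLIN1 in 1 and that of PAQR3 in 4, with changes of 0.056 to 0.30, 0.11 to 0.32 and −0.21 to −0.16. The lowest value of MBTPS2, whose probe was dim, was that with normexp and its offset. Within the shared scan MBTPS2, ERLIN1 and PAQR3 were at 0.26, 0.32 and −0.19 (limma adjusted p = 0.230, 0.175 and 0.214).

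Among 11 other SREBP target genes 0 passed the test (limma, 1 higher and 2 lower at an unadjusted p under 0.05), and 3 were higher and 8 lower in value. The isoprenoid branch (9 genes) and cholesterol ester and sterol traffic (10 genes) also had 0 calls (limma, 2 genes of each at an unadjusted p under 0.05). Of 6 LXR partners and cofactors NCOR1, a corepressor of nuclear receptors, rose by 0.24 (SE 0.041, limma adjusted p = 0.0367). It read 8.97, 8.88 and 8.94 with IL-17A and 8.69, 8.67 and 8.71 without, and the call was kept in 4 of 14 alternatives. Within the shared scan it was at 0.28 (limma adjusted p = 0.179).

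**Figure D4:**
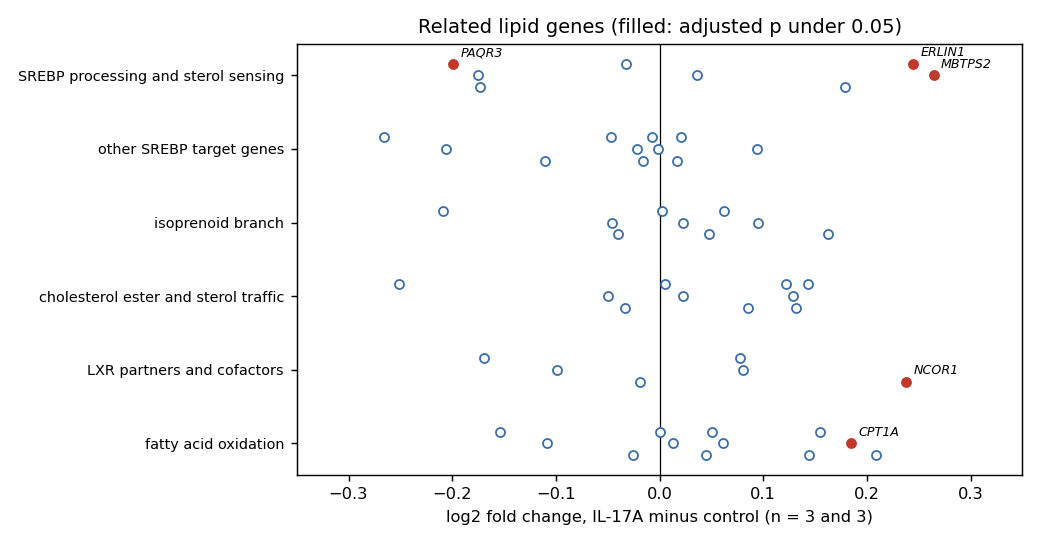
Log2 fold change of IL-17A minus control (horizontal axis, n = 3 and 3) at the brightest probe of 56 related lipid genes, 1 point per gene in 6 lists. Filled points have an adjusted p under 0.05: MBTPS2, ERLIN1, NCOR1 and CPT1A above 0 and PAQR3 below.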

How the data were processed

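Total RNA of 6 samples, grouped by their titles, was labelled with Cy3 and hybridised to 1-colour Agilent whole human genome arrays. The authors deposited an intensity per spot with the background subtracted (Agilent Feature Extraction 11.0.1.1, per the submitters' processing notes) and a table of log2 values quantile normalized in GeneSpring, used here as an alternative. Control spots and 4 to 25 non-uniform spots per array were left out. Intensities under 1 were set to 1, the log2 values of 43118 spots were averaged into 34127 probes, and the arrays were quantile normalized. Detected meant positive, significant and well above background, a reading of the flag that the methods name. The 23945 probes detected on at least 3 arrays were compared between the groups, with no covariate and both directions tested, by limma 3.58.1 in R 4.3.3, with Benjamini-Hochberg adjustment over all of them. The number of arrays limits the precision.

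Gene names came from GRCh38.p14 by matching RefSeq accessions, which named 25771 probes. The array's own annotation is on an earlier assembly, so no gene coordinates are given beyond those of the RefSeq windows. A gene was represented by its brightest tested probe. Every member is named, with the value of each array for those under an adjusted p of 0.05 or past a fold change of 1.5, and for SREBF1, SREBF2, INSIG1, ABCA1 and ABCG1. Ranges are given for further members without overlap. The members and lists were chosen with earlier results of these data known. Other genes of the pathway were not analysed here. The alternatives were the normalization, the background correction, the authors' values, the detection filter, a variance trend, a raised floor for dim probes, the t-test of the methods, the replicate number or the scan as a block, 1 scan alone, the mean over a gene's probes, and leaving out each array.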

Additional observations from a re-analysis of the deposited data

How the results depend on the processing

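INSIG2, MYLIP and STARD4 kept their direction and an unadjusted p under 0.05 under all 19 alternatives, with log2 fold changes of 0.37 to 0.47, 0.26 to 0.33 and 0.11 to 0.22, while their adjusted p was 0.05 or more in 9, 9 and 11 of them (limma or the methods' t-test). In most alternatives the direction of these 3 genes could not turn. The filters, the raised floor, the variance trend, the t-test and the replicate block leave their log2 fold changes as they are. Groups without overlap also keep their order when arrays are left out. The number of the 38 genes under an adjusted p of 0.05 was 3 as reported, when 1818 of all tested probes were called (7.59%). It was 0 without normalization and 0 with the scan as a block, when 46 (0.192%) and 48 (0.2%) of all tested probes were called. When 1 array was left out the number was 0 to 2, with 2 to 983 of all probes called. The number was 8 with a variance trend and 5 with the methods' t-test, when 16.1% and 5.21% of all tested probes were called. The 8 were 5 higher and 3 lower (CYP51A1, DHCR7 and FASN), the 5 were 4 higher and 1 lower (FASN), with normexp CYP51A1, lower, took the place of STARD4, and the mean over a gene's probes added ABCA1 for a count of 4. With a variance trend 3846 probes were called over all, and the methods' t-test called 1248, or 375 with 0 members at the thresholds of the methods without adjustment. In all alternatives 0 members passed a fold change of 1.5 at the brightest probe or the mean over probes. The cause of these differences was not tested, except that leaving out an array or a scan leaves fewer samples.

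Deviations of same-numbered samples correlated at −0.087, −0.0022 and −0.047, and those of differently numbered samples at −0.048 to 0.078. These values show no pairing by replicate number, but 3 arrays per group cannot exclude it. With the replicate number as a block 0 members and 4 probes of all were called.

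Changes of sign were seen in 13 members, all with sizes up to 0.063 and none past the test. With 75th percentile scaling FDPS was −0.063 and PMVK 0.0084. Without normalization FDPS was −0.038, MVK 0.017, PMVK 0.034 and SCAP 0.0083. With normexp PMVK was 0.0016, and with the authors' values FDPS was −0.00071. With the scan as a block, and within that scan, ABCA1 was −0.030, EBP −0.012, INSIG1 −0.058, LSS 0.052, MVD 0.0045, NR1H3 −0.020 and SCAP 0.043. With 1 array left out the values ran from −0.034 to 0.072 in ACLY, −0.017 to 0.018 in FDPS, −0.066 to 0.028 in MVK, −0.025 to 0.0089 in PMVK, −0.034 to 0.060 in SREBF2, −0.0098 to 0.043 in ABCA1, −0.025 to 0.0086 in FDFT1, −0.017 to 0.036 in NR1H3 and −0.059 to 0.0037 in SCAP.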

Other observations

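Fatty acid oxidation, the route opposite to synthesis, was measured through 12 genes. CPT1A, which admits long-chain fatty acids to mitochondria, rose with IL-17A. It read 4.17, 4.18 and 4.14 against 3.98, 3.95 and 4.00, with a log2 fold change of 0.18 (SE 0.036, limma adjusted p = 0.0447). The call was kept in 1 of 14 alternatives. At this dim probe the change was 0.027 with normexp and its offset of 50, and 0.19 within the scan that held both groups. Of the 12 genes 9 had higher and 3 lower values, with a median log2 fold change of 0.048, and 4 were higher and 1 lower without overlap (41.7%, against 40.7% of named genes). ETFDH, which passes electrons from this route to the respiratory chain, was at 0.21 (limma adjusted p = 0.0868), and the medium-chain dehydrogenase ACADM was at −0.15 (limma adjusted p = 0.110).

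Of the other SREBP targets, FABP5, a fatty acid carrier, had the lowest value. It read 13.33, 13.24 and 13.06 with IL-17A and 13.48, 13.44 and 13.50 in the controls, without overlap, at −0.27 (SE 0.077, limma adjusted p = 0.0851). PCYT2, an enzyme of phospholipid synthesis, was at −0.21 (limma adjusted p = 0.0554), and PDSS1, which builds the side chain of coenzyme Q, at −0.21 (limma adjusted p = 0.0622).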
